A study of Mus musculus with 14 samples.

Results

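The genes described here encode the lysosomal cathepsins, the subunits and accessory proteins of the vacuolar H+-ATPase (V-ATPase), and the lysosomal membrane glycoproteins LAMP1 and LAMP2. They were chosen by symbol alone (Cts followed by 1 letter, Atp6v0 and Atp6v1 genes, Atp6ap1, Atp6ap2, Lamp1 and Lamp2), which took 45 of 55433 symbols in the RNA table after 2 Atp6v0c pseudogenes were left out. By role they comprised 14 cysteine cathepsins, 4 aspartic or serine cathepsins, 9 genes of the V0 sector, 13 of the V1 sector, 2 accessory proteins, 2 LAMP genes and Atp6v1fnb, a neighbour of Atp6v1f that the symbol rule also takes. The cells were mouse tumor-derived cells of strain C57BL/6 at passages 6 to 8, which carried either a guide RNA against Nsd3 (sgNSD3), an H3K36 methyltransferase gene, or a control guide (sgControl). Total RNA was measured in 3 libraries per condition. Chromatin was profiled for H3K36me2 with 2 samples per condition and for H3K27me3 with 1 sample per condition. Of the 2 IgG control samples, which are not used here, the one titled sgNSD3 carries a source label of sgControl, so its condition is uncertain. The labels name neither the tumor type nor the number of clones. They also do not say whether libraries with the same guide were grown as separate cultures; p-values therefore measure only the spread between these libraries, which may be technical.

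Lysosomes are acidic compartments in which proteins, lipids and sugars are broken down. The V-ATPase acidifies them: its cytosolic V1 sector hydrolyses ATP, and its membrane-embedded V0 sector carries protons across. Cathepsins are proteases that mostly become active in this acid lumen, and LAMP1 and LAMP2 line the inner face of the lysosomal membrane. Many of these genes are targets of the transcription factor TFEB and its relatives, which bind an E-box element with a CACGTG centre in their promoters.

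The 6 RNA libraries held between 20294828 and 21863833 counts. Nsd3 RNA itself was higher in the libraries labelled sgNSD3, at 21989, 22011.5 and 21837 normalized counts, against 14568, 14402 and 14674.5 in sgControl (1.51-fold), so gene-level RNA does not check the guide and each direction below rests on the labels. Across the 18263 tested genes, limma called 994 higher and 1176 lower in sgNSD3 at an adjusted p threshold of 0.05. At an unadjusted p under 0.05, 2135 were higher and 2381 lower, so small counts at that threshold below are given as values only. Counts differed least among sgNSD3 libraries, with a chi-square per degree of freedom of 1.33 to 1.46. The pairs of sgControl replicate 1 with sgControl replicates 2 and 3 reached 7.17 and 10.85, and pairs between conditions 7.42 to 8.62, so sgControl replicate 1 stood apart from its group. Among cell type markers, 4 of 14 macrophage and other blood cell genes had 0 reads (Adgre1, Fcgr1, Cd3e and Ly6g). The pan-leukocyte marker Ptprc averaged 0.326 normalized counts in sgNSD3 and 0.687 in sgControl. The summed level of these 14 genes was 378 to 394 in sgNSD3 and 346 to 380 in sgControl. The 7 tested markers were Csf1r (178 normalized counts on average in sgNSD3 and 155 in sgControl), Cd14 (93.9 and 83.3), Cd68 (65.2 and 76.8), Cd74 (20.4 and 13.1), Lyz2 (9.93 and 17.7), Aif1 (6.89 and 11.4) and Cd79a (11.5 and 9.68), each given as sgNSD3 and then sgControl. Of these 7, limma called 0, against 11.9% of all tested genes, and voom also called 0. At an unadjusted p under 0.05, 2 of the 7 were higher and 1 lower. Of 8 epithelial markers 4 were tested and 3 fell (Krt19, Krt14 and Krt18), which is 75% called, against 11.9% of all tested genes. The summed level of that list was 3072 to 3103 in sgNSD3 and 4264 to 4826 in sgControl, and Epcam had 0 reads. Of 8 fibroblast markers 7 were tested, of which 3 rose and 1, Pdgfra, fell (limma adjusted p = 0.0127). That is 57.1% called, and by voom 3 rose and 2 fell. The summed level of this list overlapped between conditions, at 780800 to 787400 in sgNSD3 and 711900 to 812600 in sgControl. The rises of Col1a1, Thy1 and Pdgfrb each lost their call without at least 1 library, and that of Col1a1 also under quantile normalization. The part of these markers in the results below was not tested, and in bulk RNA fewer cells of a type and less RNA per cell cannot be told apart.

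The promoters of Ctsc, Ctsf, Ctsd and Lamp1 are shown by the 150 bases before a transcription start, 5′ to 3′ on the gene's strand, from RefSeq (GRCm38.p6), with each CACGTG in capitals. For Ctsf, Ctsd and Lamp1 this start is the edge of the annotated gene; for Ctsc it is position 88278085, which lies 61 bases inside the annotated gene span. Ctsc and Ctsf rose in sgNSD3, Ctsd fell, and Lamp1 is shown because its window holds 4 copies of the hexamer.
Ctsc, chr7:88277935-88278084, plus strand: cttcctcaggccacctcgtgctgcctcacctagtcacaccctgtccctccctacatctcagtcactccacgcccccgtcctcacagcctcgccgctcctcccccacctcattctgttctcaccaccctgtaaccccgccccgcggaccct
Ctsf, chr19:4855015-4855164, plus strand: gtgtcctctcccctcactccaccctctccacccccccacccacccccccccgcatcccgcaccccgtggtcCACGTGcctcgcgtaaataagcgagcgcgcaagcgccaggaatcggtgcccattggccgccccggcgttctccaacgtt
Ctsd, chr7:142387828-142387977, minus strand: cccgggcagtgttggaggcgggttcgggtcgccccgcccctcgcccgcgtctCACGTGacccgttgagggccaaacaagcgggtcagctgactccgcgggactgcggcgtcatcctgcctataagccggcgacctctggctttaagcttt
Lamp1, chr8:13159011-13159160, plus strand: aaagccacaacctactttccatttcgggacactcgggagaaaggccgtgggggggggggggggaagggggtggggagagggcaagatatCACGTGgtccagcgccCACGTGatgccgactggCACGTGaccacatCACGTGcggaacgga

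The windows behind these sequences run from 250 bases before to 50 bases after a start, and 35 of the 45 genes had at least 1, with 39 windows in all. The searched letters were CACGTG, the longer TCACGTGA that contains it, and TCACGTGA with a G before and a C after it; each reads the same on both strands. Among the 25 genes with tested RNA and a window, 9 (36%) held CACGTG, against 11.3% of all 11204 such genes. TCACGTGA was present in 5 of the 25 (20%), against 2.03% of all, and its extension by G and C in 0 of 25, against 0.732%. The genes with TCACGTGA were Ctsa, Ctsd, Atp6v0d1, Atp6v0e and Atp6v1a, and those with CACGTG only in another context were Ctsf, Ctsl, Atp6v0b and Lamp1. In Lamp1 the hexamers began 61, 45, 28 and 15 bases before the start, in Ctsf 79 bases before it, and in Ctsd 245 and 98 bases before it. The single windows of Ctsc and of Atp6v0a4, which also rose, held none, and Ctsh, which fell, had no window. A match describes letters in this window and not a bound site.

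Of the 45 genes, 33 passed the filter of a mean of at least 8 normalized counts, and 3 of these rose and 2 fell in sgNSD3. That is 15.2% of the 33, against 11.9% of all tested genes, so the share called lay near that of all genes. By direction, 9.09% rose against 5.44% of all tested genes, and 6.06% fell against 6.44%. The median log2 difference of the 33 was -0.01, on log2(normalized count + 1), against 0.00 over all tested genes, and their median absolute difference was 0.03 against 0.11. All tested genes were not matched to the 33 for level. Differences of low genes spread more, so the smaller absolute median is not read as greater stability. Of the 5 called genes 4 were cathepsins (4 of 11 tested) and 1 was a V-ATPase subunit gene (1 of 19 tested); whether these shares differ was not tested.

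**Figure D1:**
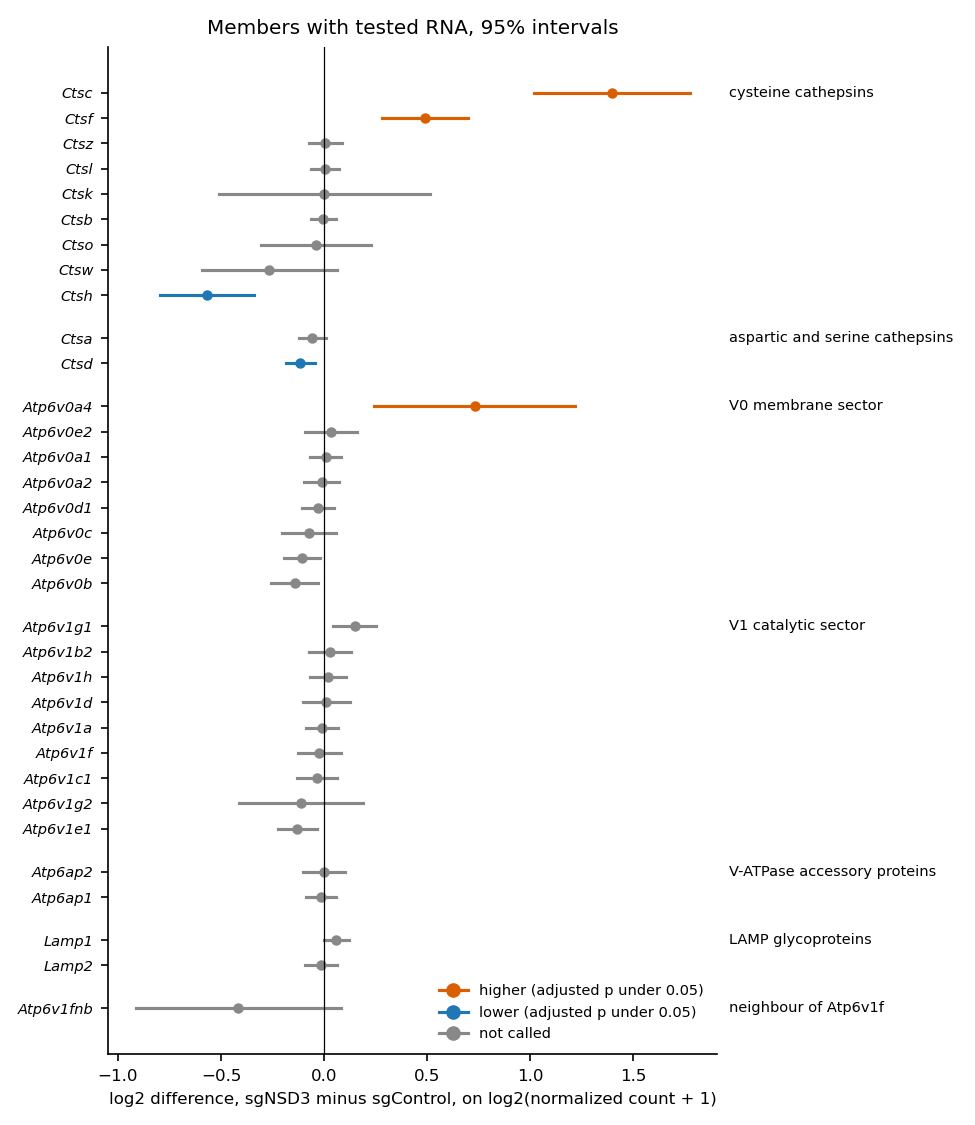
Log2 difference (sgNSD3 minus sgControl, on log2(normalized count + 1)) of the 33 tested genes with 95% intervals from limma, grouped by role; orange marks genes called higher, blue genes called lower and grey genes not called. Ctsc, Atp6v0a4 and Ctsf lie to the right, Ctsh and Ctsd to the left, and most V-ATPase subunits lie close to 0.

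Ctsc encodes cathepsin C (dipeptidyl peptidase 1), which trims dipeptides from the ends of proteins and activates serine proteases of immune cells. It had 63.04, 78.63 and 86.03 normalized counts in sgNSD3 replicates 1, 2 and 3, against 27.16, 30.62 and 26.39 in sgControl replicates 1, 2 and 3. The conditions did not overlap, and the lowest sgNSD3 library was above the highest sgControl library by more than the whole spread within either condition. The means were 75.9 ± 11.7 in sgNSD3 and 28.06 ± 2.26 in sgControl (SD, n = 3 each), a 2.71-fold difference with a log2 difference of 1.40 ± 0.182 (SE; limma adjusted p = 5.43e-06). Ctsc (chromosome 7, 88278024 to 88315861, GRCm38.p6) remained called in each of the 15 alternatives run.

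Ctsf encodes cathepsin F, a cysteine protease of the lysosome. It had 302.8, 317.4 and 290.3 normalized counts in sgNSD3, against 265.3, 206.7 and 182.7 in sgControl. The sgNSD3 libraries lay close together and all above the sgControl libraries, of which replicate 1 was highest. The means were 303.5 ± 13.5 in sgNSD3 and 218.2 ± 42.5 in sgControl (SD, n = 3 each), 1.39-fold apart, with a log2 difference of 0.49 ± 0.101 (SE; limma adjusted p = 0.00149). Ctsf (chromosome 19, 4855165 to 4860918) was also called in all 15 alternatives.

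Ctsh encodes cathepsin H, an aminopeptidase known for processing surfactant proteins in the lung. It had 124, 106.4 and 107.5 normalized counts in sgNSD3, against 168.2, 153.1 and 181.7 in sgControl. Every sgNSD3 library was below every sgControl library. The means were 112.7 ± 9.85 in sgNSD3 and 167.7 ± 14.3 in sgControl (SD, n = 3 each), 1.49-fold lower in sgNSD3, with a log2 difference of -0.57 ± 0.111 (SE; limma adjusted p = 0.000959), and the call held in all 15 alternatives. Ctsh lies on chromosome 9 (90054267 to 90076095).

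Ctsd encodes cathepsin D, the main aspartic protease of the lysosome. It had 3184, 3185 and 3226 normalized counts in sgNSD3, against 3604, 3389 and 3408 in sgControl. The conditions did not overlap, and the 3 sgNSD3 libraries were nearly level. The means of 3198 ± 23.8 in sgNSD3 and 3467 ± 119 in sgControl (SD, n = 3 each) differed 1.08-fold, lower in sgNSD3, with a log2 difference of -0.12 ± 0.0335 (SE; limma adjusted p = 0.0198). This call was lost under quantile normalization (adjusted p = 0.0674), without sgNSD3 replicate 1, 2 or 3 (0.093, 0.0903 and 0.0627) and without sgControl replicate 1 (0.0547); over its 15 alternatives the adjusted p ran between 0.0142 and 0.093, and the direction held in each.

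**Figure D2:**
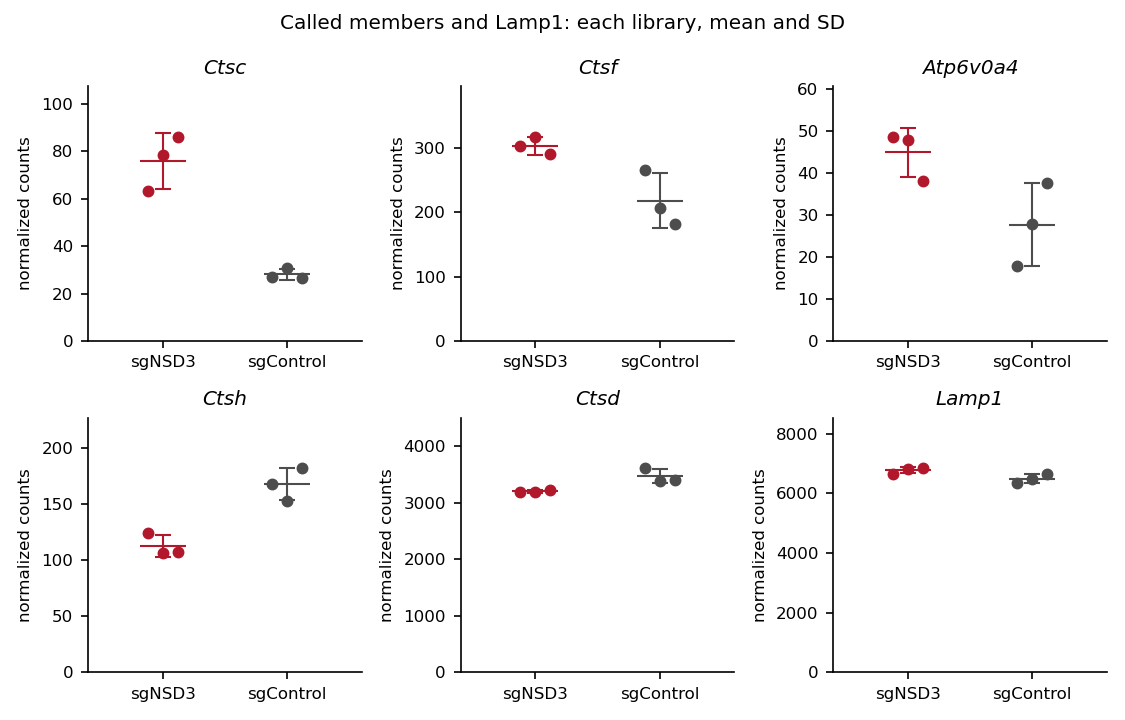
Normalized counts of the 5 called genes and of Lamp1 in each library (points), with the mean and SD (bars), sgNSD3 in red and sgControl in grey; each vertical axis starts at 0. For Ctsc all 3 sgNSD3 libraries (63.04 to 86.03) lie well above the sgControl libraries (26.39 to 30.62), whereas the Ctsd difference is small beside its level.

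The other cathepsins with tested RNA were not called. Ctsb and Ctsl encode cathepsins B and L, broadly expressed cysteine endopeptidases. Ctsb had 6074, 6109 and 6218 normalized counts in sgNSD3, against 6081, 6103 and 6269 in sgControl, and its 95% interval for the ratio was 0.957 to 1.04. Ctsl had 3546, 3537 and 3650 in sgNSD3, against 3519, 3534 and 3654 in sgControl, with an interval of 0.957 to 1.05. For both genes the libraries of the conditions were interleaved. Ctsz, which encodes the carboxypeptidase cathepsin Z, had an interval of 0.95 to 1.06. Ctsa encodes the serine carboxypeptidase that also protects β-galactosidase and neuraminidase in a complex. It had 3736, 3724 and 3835 normalized counts in sgNSD3, against 3904, 3890 and 3955 in sgControl, which did not overlap, but it missed the threshold (ratio 0.961, interval 0.92 to 1.005, limma adjusted p = 0.259).

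Lower counts left wider intervals. Ctsk encodes cathepsin K, the collagen-degrading protease of osteoclasts; it had 19.64, 27.81 and 21.51 normalized counts in sgNSD3 and 19.85, 27.75 and 21.31 in sgControl, with an interval of 0.701 to 1.43. Ctsw, known from lymphocytes, had the largest lower difference of the genes not called with a mean of at least 32. It had 52.71, 61.37 and 56.7 in sgNSD3, against 73.12, 74.64 and 58.86 in sgControl, which overlapped (log2 difference -0.27, ratio interval 0.663 to 1.04, limma adjusted p = 0.309). Ctso averaged 91.79 ± 9.13 in sgNSD3 and 94.12 ± 3.26 in sgControl, with an interval of 0.808 to 1.17.

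The remaining 7 cathepsins were at or near 0. Ctse, Ctsg, Ctsj, Ctsm, Ctsq and Ctsr had 0 reads in each of the 6 libraries, which allows up to 3 reads, or 2.87 to 3.13 normalized counts, per library, for counting error only. Ctsj, Ctsm, Ctsq and Ctsr are placental cathepsins of rodents and lie in 1 stretch of chromosome 13, Ctsg is a serine protease of neutrophils and Ctse an aspartic protease of stomach and immune cells. Ctss, the cathepsin of antigen-presenting cells, had 1 read in sgControl replicate 2 and 0 in the other libraries. Ctsg, Ctse and Ctss were thus at or under the detection floor at this depth.

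**Figure D3:**
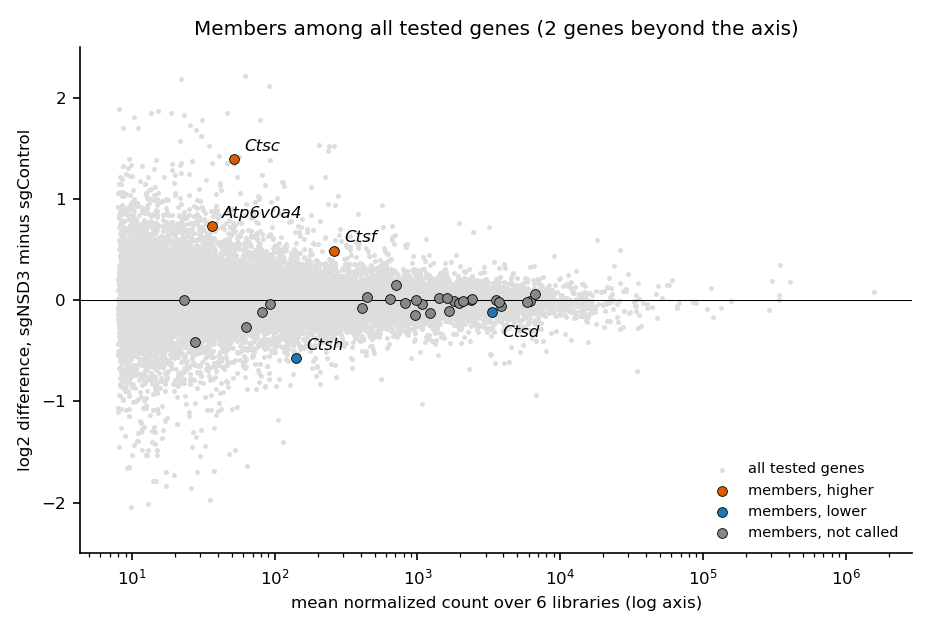
Log2 difference (sgNSD3 minus sgControl, on log2(normalized count + 1)) against the mean normalized count over the 6 libraries (log axis), with all tested genes in light grey and the 33 tested genes of the group as larger points, coloured by call; 2 genes lie beyond the vertical axis. Ctsc, with a log2 difference of 1.40, lies near the upper edge of genes of similar level.

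Of the 24 genes of V-ATPase subunits and accessory proteins, 19 were tested and 1 was called (5.26%, against 11.9% of all tested genes). With so few genes, this share is not read as a lack of change. Atp6v0a4 encodes the a4 isoform of the V0 sector, known from acid-secreting cells of kidney and inner ear. It had 48.57, 47.94 and 38.13 normalized counts in sgNSD3, against 17.76, 27.75 and 37.55 in sgControl. The conditions did not overlap, but the lowest sgNSD3 library and the highest sgControl library nearly met. The means were 44.88 ± 5.86 in sgNSD3 and 27.69 ± 9.9 in sgControl (SD, n = 3 each), 1.62-fold apart, with a log2 difference of 0.73 ± 0.236 (SE; limma adjusted p = 0.0394). The call was lost with no level filter (adjusted p = 0.0739), under quantile normalization (0.0779), and without sgNSD3 replicate 1 or 2 (0.146 and 0.141) or sgControl replicate 1 or 2 (0.214 and 0.0854); over its 15 alternatives the adjusted p ran between 0.0105 and 0.214. Its span (chromosome 6, 38048483 to 38124586) overlaps D630045J12Rik by 1413 bases, a gene with a mean of 439 normalized counts, and the sources used here do not say whether counting used strand.

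In the V0 sector, none of the other 7 tested genes was called by limma or by voom, against 11.9% of all tested genes by limma. A count over 7 genes says little. At an unadjusted p under 0.05, 2 of them were lower and 0 higher, against 2381 lower and 2135 higher of all 18263 tested genes. Atp6v0b, a proteolipid of the rotating ring, had the largest lower difference among the V-ATPase genes not called. It had 940.4, 942.6 and 871 normalized counts in sgNSD3, against 1105, 928.2 and 1011 in sgControl, with a ratio of 0.905 (interval 0.837 to 0.981, limma adjusted p = 0.0949). The conditions overlapped through sgControl replicate 2, without which the gene was called lower (adjusted p = 0.0192; 0.0192 to 0.378 over its alternatives). The lncRNA Gm12841 (181.5 normalized counts on average) overlaps all 3004 bases of the Atp6v0b span. Atp6v0e averaged 1604 ± 54.5 in sgNSD3 and 1729 ± 96.7 in sgControl (SD, n = 3 each; ratio 0.928, limma adjusted p = 0.104), and it was called lower without sgControl replicate 1 (adjusted p = 0.0202; 0.0202 to 0.38 over its alternatives). The isoform genes Atp6v0a1 and Atp6v0a2, which anchor the complex in the membrane, had ratio intervals of 0.954 to 1.06 and 0.934 to 1.05. Atp6v0d1, which links the sectors, had one of 0.93 to 1.03.

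Atp6v0c, the main ring proteolipid, had 397.9, 406.6 and 394 normalized counts in sgNSD3, against 432.4, 422 and 406 in sgControl, with a ratio of 0.951 (interval 0.869 to 1.04). Its pseudogene Atp6v0c-ps2, which is not among the 45 genes, was called higher (1.23-fold, limma adjusted p = 0.0313). The counts assigned to Atp6v0c-ps2 were 253.2, 234.9 and 252.2 normalized counts in sgNSD3, against 191.2, 223.9 and 187.8 in sgControl. Near-identical copies can share reads, so the split between the parent gene and the pseudogene is uncertain, and the opposite signs of the differences are given as values only.

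In the V1 sector, 0 of 9 tested subunit genes were called by limma or by voom, against 11.9% of all tested genes by limma. With so few genes, this count is not read as a lack of change. At an unadjusted p under 0.05, 1 of the 9 was higher and 1 lower, against 2135 and 2381 of all 18263. The higher one, Atp6v1g1, a subunit of the peripheral stalk, had 758.6, 732.6 and 742 normalized counts in sgNSD3, against 650.8, 687.1 and 678 in sgControl. The conditions did not overlap, yet the gene missed the threshold (ratio 1.11, interval 1.03 to 1.19, limma adjusted p = 0.06), and it passed under quantile normalization (adjusted p = 0.0462; 0.0462 to 0.201 over its alternatives). The lower one, Atp6v1e1, another stalk subunit, had 1170, 1187 and 1150 in sgNSD3, against 1275, 1347 and 1216 in sgControl. Its conditions did not overlap either (ratio 0.913, interval 0.857 to 0.9748, limma adjusted p = 0.057), and it passed without sgControl replicate 3 (adjusted p = 0.0185; 0.0185 to 0.253 over its alternatives). Atp6v1a and Atp6v1b2, which form the catalytic hexamer, had 2068, 2078 and 2105 and 1502, 1353 and 1462 normalized counts in sgNSD3. In sgControl, Atp6v1a had 2025, 2189 and 2078, and Atp6v1b2 had 1425, 1507 and 1309. Both were interleaved between conditions, with ratio intervals of 0.942 to 1.05 and 0.949 to 1.09. Atp6v1h, a regulatory subunit, had an interval of 0.954 to 1.08.

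Across the 18 V-ATPase genes that were tested and not called, the ratios of sgNSD3 to sgControl lay between 0.905 and 1.11, and their 95% intervals between 0.752 and 1.19. The lowest bound belonged to Atp6v1g2, which averaged 77.85 ± 11.1 normalized counts in sgNSD3 and 83.86 ± 7.53 in sgControl (SD, n = 3 each). Of the 2 accessory genes, Atp6ap1 had an interval of 0.942 to 1.04 and Atp6ap2, which also encodes the prorenin receptor, 0.93 to 1.07. Limma and voom called 0 of the 2, and 0 passed an unadjusted p of 0.05. With 11.9% of all tested genes called by limma, 0 of 2 says little. The untested subunit genes were isoforms known from particular tissues. Atp6v0d2, Atp6v1e2 and Atp6v1g3 had 0 reads in all 6 libraries. Atp6v1b1, of kidney intercalated cells, had 8, 6 and 9 reads in sgNSD3 and 6, 4 and 6 in sgControl. Atp6v1c2 had 7, 4 and 4 reads in sgNSD3 and 7, 12 and 3 in sgControl. The neighbouring gene Atp6v1fnb averaged 24.04 ± 7.06 normalized counts in sgNSD3 and 31.53 ± 2.5 in sgControl (SD, n = 3 each), with overlapping libraries and an interval of 0.531 to 1.06.

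Lamp1 had 6655, 6818 and 6831 normalized counts in sgNSD3, against 6347, 6491 and 6645 in sgControl. The conditions did not overlap, by a narrow gap, and the gene was not called (ratio 1.04, limma adjusted p = 0.203). Lamp2, needed for the fusion of autophagosomes with lysosomes, had 5872, 5888 and 5804 in sgNSD3, against 5479, 6302 and 6017 in sgControl. Its sgControl libraries spanned all sgNSD3 values, with an interval of 0.937 to 1.04. Neither LAMP gene passed an unadjusted p of 0.05, and voom called 0 of the 2. Beside the 11.9% of all tested genes called by limma, a count over 2 genes says little.

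The wider lysosomal machinery was described with lists that share no gene with the 45. Of 45 other hydrolases and activators 44 were tested, of which 7 fell and 2 rose (20.5% called, against 11.9% of all tested genes; median log2 difference -0.04). Hyal2, a hyaluronidase, averaged 495.1 ± 18 normalized counts in sgNSD3 and 591 ± 15.4 in sgControl (SD, n = 3 each; 1.19-fold lower, limma adjusted p = 0.00368). Smpd1, acid sphingomyelinase, was 1.16-fold lower (limma adjusted p = 0.0106), and Gaa, which degrades glycogen, 1.09-fold higher (limma adjusted p = 0.00756); both calls were lost without sgNSD3 replicate 1 (adjusted p = 0.0601 and 0.0515, the highest over their alternatives, of which the lowest were 0.00128 and 0.000281).

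Of 30 lysosomal membrane proteins and transporters 29 were tested, of which 5 fell and 0 rose by limma (17.2% called, against 11.9% of all tested genes, median log2 difference -0.01). By voom 4 fell and 0 rose. At an unadjusted p under 0.05, 7 were lower and 3 higher. Cd63, a tetraspanin of late endosomes and exosomes, had 5561, 5537 and 5451 normalized counts in sgNSD3, against 6786, 7768 and 6989 in sgControl, 1.3-fold lower (log2 difference -0.38 ± 0.037 SE, limma adjusted p = 5.83e-08). Scarb2 encodes LIMP-2, which carries glucocerebrosidase to the lysosome. It had 4775, 4717 and 4838 in sgNSD3, against 5506, 5428 and 5472 in sgControl, 1.14-fold lower (limma adjusted p = 3.46e-05). For both genes every sgNSD3 library lay below every sgControl library. Pip4p1, a phosphoinositide phosphatase, was 1.12-fold lower (limma adjusted p = 0.00891), a call lost without sgNSD3 replicate 1 or sgControl replicate 2 (adjusted p = 0.0963 and 0.0601; 0.00364 to 0.0963 over its alternatives).

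The lists of genes that sort lysosomal enzymes and that control lysosomal signalling had shares called close to the 11.9% of all tested genes. Of 19 sorting genes 2 fell and 1 rose (15.8% called, median log2 difference -0.02). Sort1, the sorting receptor sortilin, averaged 1634 ± 10.4 normalized counts in sgNSD3 and 1362 ± 64.4 in sgControl (SD, n = 3 each; 1.2-fold higher, limma adjusted p = 6.06e-05). Gnptab, which makes the mannose 6-phosphate tag, was 1.11-fold lower (limma adjusted p = 0.00317). The retromer gene Vps26a was also 1.11-fold lower (limma adjusted p = 0.0188), but not without sgNSD3 replicate 1 or sgControl replicate 2 (adjusted p = 0.162 and 0.0705; 0.0101 to 0.162 over its alternatives). Of 24 genes of the TFEB family and of mTORC1 control 23 were tested, of which 2 fell and 1 rose (13% called, median log2 difference 0.00). Lamtor1 fell 1.13-fold, Tsc2 rose 1.1-fold, and Rragd averaged 8.227 ± 2.34 in sgNSD3 and 16.82 ± 2.98 in sgControl. Each of the 3 calls was lost in some alternatives. Lamtor1 (limma adjusted p = 0.0277) was lost under quantile normalization and without sgNSD3 replicate 2 or 3 or sgControl replicate 2 (0.0105 to 0.188 over its alternatives). Tsc2 (limma adjusted p = 0.0132) was lost without sgNSD3 replicate 2 or 3 (0.00684 to 0.0845 over its alternatives). Rragd (limma adjusted p = 0.0495) was lost with no level filter, by voom, on log2(normalized count + 1), without each sgNSD3 library in turn and without sgControl replicate 1 or 3 (0.0456 to 0.202 over its alternatives).

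Of 14 genes of V-ATPase assembly and docking 13 were tested, of which 2 fell and 1 rose (median log2 difference 0.04). That is 23.1% called, against 11.9% of all tested genes, and a share over 13 genes says little. Dmxl1 and Dmxl2, which encode rabconnectin-3 subunits that help V1 and V0 assemble, moved in opposite directions. Dmxl1 had 2367, 2357 and 2340 normalized counts in sgNSD3, against 1921, 2111 and 2168 in sgControl (1.14-fold higher, limma adjusted p = 0.00176). Dmxl2 had 401, 394.1 and 405.7 in sgNSD3, against 451.2, 474.6 and 504.4 in sgControl (1.19-fold lower, limma adjusted p = 0.0101; adjusted p = 0.0549 without sgNSD3 replicate 2, and 0.00383 to 0.0549 over its alternatives). Rab7, the small GTPase of late endosomes, was 1.12-fold lower (limma adjusted p = 0.00163). Of 15 inhibitors of cysteine cathepsins 4 were tested and 0 were called by limma or voom, against 11.9% of all tested genes by limma. At an unadjusted p under 0.05, 2 of the 4 were lower and 0 higher. The summed level of the list was 5289 to 5355 normalized counts in sgNSD3 and 5412 to 5726 in sgControl.

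**Figure D4:**
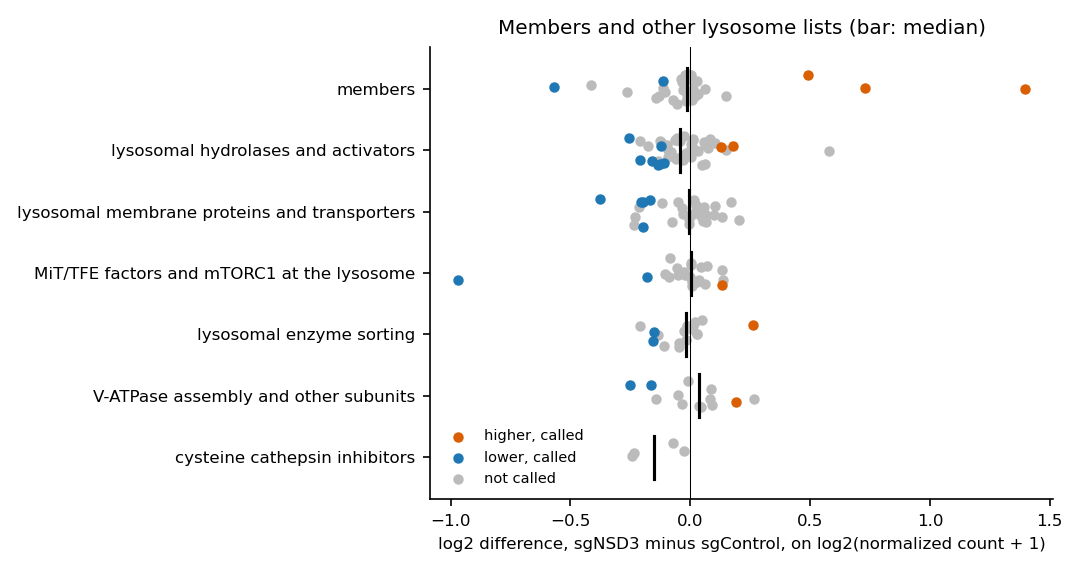
Log2 difference (sgNSD3 minus sgControl, on log2(normalized count + 1)) of each tested gene in the group and in 6 other lysosomal lists, with vertical jitter only for legibility; orange and blue mark genes called higher and lower, grey genes not called, and the black bar the median. Ctsc is the rightmost point, with a log2 difference of 1.40, and Rragd the leftmost, with -0.97.

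Chromatin was available as 1 signed score per gene body for H3K27me3 and 2 for H3K36me2, and 44 of the 45 genes had a gene body among 22470. The header names no condition, and the sources used here do not say whether a score compares conditions. The scores are given as values, not as a level of either mark or a difference between sgNSD3 and sgControl. In the authors' deposited table the median H3K27me3 score of the 44 was -0.0278, against -0.0258 over all gene bodies, and 11 (25%) were above 0, against 31.5% of all. For H3K36me2 the authors' deposited table gave a median score, averaged over both columns, of 0.0978 for the 44 and 0.10 for all gene bodies.

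H3K27me3 scores were set beside RNA detection. Of the 9 gene bodies with 0 RNA reads, 7 (77.8%) were above 0 in the authors' deposited table, against 58.6% of all 4553 gene bodies with 0 reads. Of the 32 with tested RNA, 4 (12.5%) were above 0 in the authors' deposited table, against 18.1% of all 12615 such gene bodies. In the authors' deposited table the placental gene Ctsr, with 0 reads, scored highest of the 44 (0.286, rank 186 from the top), followed by Ctsc (0.222, rank 412 from the top). Ctsc thus stood apart from the other tested genes, none of which scored above 0.0169, and it is also the gene with the largest RNA rise. The lowest were Ctsf (-0.194, rank 546 from the bottom) and Ctsh (-0.166, rank 875 from the bottom) in the authors' deposited table, of which 1 rose and 1 fell in RNA. Since these genes are few and the header names no condition, no relation between score and RNA change was tested.

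For H3K36me2, the 3 highest of the 44 by the mean of both columns in the authors' deposited table were Ctse (0.0773 and 0.366), Atp6v0a2 (0.103 and 0.265) and Atp6v1e2 (0.154 and 0.181). The columns ranked them differently. Among all gene bodies in the authors' deposited table, Ctse stood at percentiles 52.6 and 98.5, Atp6v0a2 at 68 and 92.5 and Atp6v1e2 at 89.5 and 73.6. The lowest was Ctsd, with -0.114 and -0.0385 in the authors' deposited table. Its mean of -0.0762 was the ninth lowest of all 22470 gene bodies, and Ctsd was the only one of the 44 below 0 in both columns. Next from the bottom in the authors' deposited table came Ctsm (-0.0249 and 0.0373) and Atp6v1h (0.0626 and -0.00466).

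**Figure D5:**
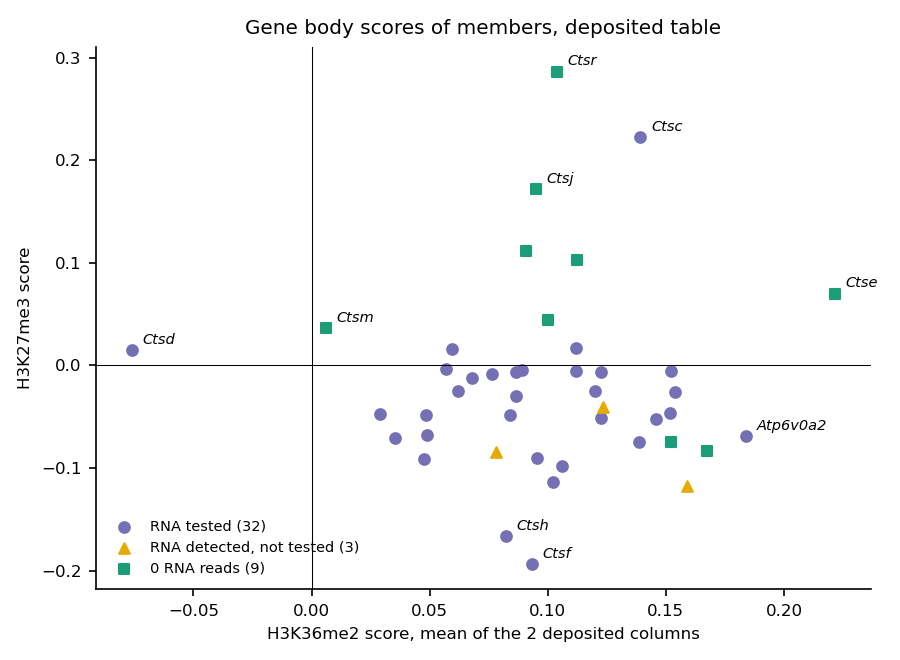
H3K27me3 score against the mean H3K36me2 score of the 44 gene bodies in the authors' deposited table, with 32 genes of tested RNA as circles, 3 with detected but untested RNA as triangles and 9 with 0 reads as squares. Most squares lie above 0 for H3K27me3 and most circles below, Ctsc is the highest circle, and Ctsd is the sole point left of 0.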

How the data were processed

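RNA was compared in 3 sgNSD3 and 3 sgControl libraries, numbered as in the sample titles; for sgNSD3 replicates 1, 2 and 3 the descriptions and columns bear the numbers 3, 1 and 2. The submitters' processing notes name mm10 and the tools HISAT2, featureCounts and DESeq2, without settings. The authors deposited log2 values, which their header and their shared minimum of 8.45 place on a variance-stabilised scale. Inverting that transform gave whole reads within 0.05 for 100% of values above 0, and these divided by the implied size factors are the normalized counts. The chromatin values are signed scores per gene body deposited by the authors, and the sources used here do not describe their making. There were 0 other value columns.

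Genes with a mean of at least 8 normalized counts were tested on the deposited log2 values with limma 3.58.1 in R 4.3.3 (eBayes with a trend, Benjamini-Hochberg over all tested genes, threshold 0.05). Folds are ratios of mean normalized counts. Log2 differences, SE and 95% intervals were fitted by limma on log2(normalized count + 1), a scale that understates changes of low genes. On simulated counts the test recovered 19.2% of 78 genes changed 1.1-fold, 67.3% of 55 changed 1.25-fold and 88.1% of 67 changed 1.5-fold. It made 1 false call among 18249 tested genes. A gene not called can therefore still differ by such folds. The simulation gave all genes and libraries the same dispersion (0.00043), so it does not model the distance of sgControl replicate 1 from its group. Its changed genes all had a mean of at least 32 normalized counts, so the recovery rates do not cover lower genes. They were also fewer than the genes called in the data.

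The genes, lists and tests were chosen with earlier results of these data known. Every called gene is named; of those not called, those with the largest difference each way (mean of at least 32) are given, and of each other list up to 3 called genes with the largest difference. Atp6v1e1, Atp6v0e and further genes not called were picked after their values were seen. A planned ranking of levels per kilobase of transcript was not made, because transcript lengths were not used here, so levels are not compared between genes. Alternatives were other scales, filters, scalings, voom, replicate blocks and leaving out each library. Positions come from RefSeq.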

Additional observations from a re-analysis of the deposited data

How the results depend on the processing

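Ctsc, Ctsf and Ctsh were called in the same direction under each of the 15 alternatives run, and no called gene named in the text changed sign. The sign changed in at least 1 alternative for 15 genes that were not called, each with a log2 difference on the deposited scale of at most 0.0187 in size, so their signs carry no direction. Under quantile normalization the difference became -0.00797 for Ctsk, 0.00216 for Atp6v0a2, 0.0269 for Ctsb, 0.00532 for Atp6v1a, 0.00586 for Atp6ap2 and 0.0151 for Lamp2. By voom, whose log2 scale is not the deposited one, it was -0.00189 for Ctsk. On the deposited scale, leaving out 1 library gave -0.0107 to 0.0292 for Atp6v1h, -0.0206 to 0.02996 for Ctsz, -0.026 to 0.00953 for Ctso, -0.0188 to 0.0187 for Ctsk, -0.0451 to 0.0119 for Atp6v0a2, -0.043 to 0.00612 for Atp6v1f, -0.0196 to 0.0523 for Atp6v1b2 and -0.0188 to 0.028 for Atp6v0a1. It gave -0.0174 to 0.0254 for Atp6v1d, -0.00927 to 0.0175 for Ctsl, -0.0127 to 0.00872 for Ctsb, -0.0262 to 0.0173 for Atp6v1a, -0.034 to 0.0277 for Atp6ap2, -0.0657 to 0.0251 for Lamp2 and -0.0463 to 0.0079 for Atp6ap1. Against 3 higher and 2 lower genes of the group in the main test, quantile normalization gave 1 lower, and leaving out 1 library gave 2 to 3 higher and 1 to 3 lower. Over all tested genes, against 994 higher and 1176 lower, quantile normalization gave 1014 higher and 1000 lower. Leaving out 1 library gave 641 to 993 higher and 707 to 1164 lower of all tested genes, the fewest without an sgNSD3 library. In these leave-one-out fits 1 library fewer enters. The deviations of same-numbered libraries from their group means correlated at 0.046, 0.0163 and -0.0134 with the numbers of the titles. With those of the descriptions they correlated at -0.0663, -0.00654 and -0.0397. Counting error alone lowers such correlations, so they do not show whether libraries were paired. With the title numbers as a replicate block, 4 genes of the group were lower (Atp6v0b and Atp6v1e1 in addition) and 3 higher. Calls over all 18263 tested genes also rose with this block, to 1119 higher and 1333 lower. With the description numbers 2 genes of the group were lower and 3 higher, and of all tested genes 1086 were lower and 919 higher. Each H3K36me2 column by itself gave a median of 0.0772 and 0.134 for the 44 gene bodies, against 0.0978 for their mean. Among the genes not called, the widest ratio intervals belonged to the 5 with means under 100 normalized counts (Ctsk, Atp6v1fnb, Ctsw, Atp6v1g2 and Ctso), and intervals cover the spread between these libraries only. The causes of the lost calls were not tested.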
